A study of Saccharomyces cerevisiae with 6 samples.

Results

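Sulfate assimilation was followed in 10 genes of Saccharomyces cerevisiae, from the uptake of sulfate through its reduction to sulfide and the making of siroheme to the step that fixes sulfide in carbon. The genes were SUL1, SUL2, MET3, MET14, MET16, MET5, MET10, MET1, MET8 and MET17. Each was read from the probe set annotated to that gene alone. All 10 had 1 such probe set, among 5449 genes measured. Cultures of the haploid strain BY4742 in the rich medium YPD received 80 µM clioquinol (CQ), a hydroxyquinoline drug that chelates metal ions such as iron, zinc and copper, or 1% of the solvent DMSO, for 5 h. Each group held 3 biological replicates, and each replicate was measured on 1 Affymetrix array. Both groups share the strain background, with deletions at his3, leu2, lys2 and ura3, and the medium. The DMSO content of the CQ cultures is not given in the labels, so an effect of DMSO cannot be told apart from one of CQ. BY4742 carries an intact MET17 (also called MET15), unlike its sister strain BY4741.

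Yeast takes up sulfate through proton-coupled permeases and activates it with ATP. The activated sulfate is reduced first to sulfite and then, by sulfite reductase, to sulfide, which is joined to O-acetylhomoserine to give homocysteine, the precursor of methionine and cysteine. Sulfite reductase holds an iron-sulfur cluster and siroheme, an iron tetrapyrrole that branches off from heme synthesis at uroporphyrinogen III. The genes are activated by Met4, which is brought to their promoters by Cbf1 and by Met31 or Met32 and is held in check by the ubiquitin ligase subunit Met30 when sulfur compounds are plentiful.

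Intensities are the authors' deposited linear values, and differences are CQ minus DMSO on the scale of log2(intensity + 16), fitted with limma over the 5449 genes. A gene with a Benjamini-Hochberg adjusted p under 0.05 is said to have risen or fallen. Values after ± are standard deviations over 3 arrays for intensities and standard errors of the fit for log2 differences. Intensities depend on the probes, so levels of different genes are not compared. Median intensities over all genes ran from 976.9 to 1008 with CQ and from 889.7 to 926.1 with DMSO. The background level of an array, the 95th percentile of its fission yeast probe sets, was 41.8 to 59.8. LEU2, LYS2 and URA3, which the strain lacks, read between 7.38 and 58.6 on the 6 arrays. All 10 genes of sulfate assimilation lay above background on every array, the nearest being SUL1 at 3.06 times background.

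2 features of the CQ arrays are to be kept in mind for the results below. The 3' to 5' index, the mean log2 ratio of the 3' to the 5' probe sets of 6 control genes which moves with RNA integrity and with labelling, was 1.30, 1.53 and 1.15 for CQ replicates 1 to 3 and 0.96, 0.96 and 0.88 for DMSO replicates 1 to 3. The mean was thus 0.40 higher with CQ (exact two-sided permutation p = 0.1, the lowest that 3 against 3 arrays can give). CQ replicate 2, the array with the highest index, also had the brightest bioB hybridisation control, at 1136 against 257.7 to 573.4 on the others. For each of the 10 genes the estimates without this array and with the index in the fit are given beside the main one.

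Transcripts of sulfate assimilation were higher with CQ at nearly every step. Of the 10 genes, 9 rose, 0 fell and 1, the sulfite reductase gene MET5, did not pass. At an unadjusted limma p under 0.05 the counts were also 9 higher and 0 lower. Over all genes tested 36.1% rose, 31.9% fell and 68.0% passed in either direction. The median difference of the 10 genes was 1.06 on the log2 scale, against 0.02 for all genes. Uptake, activation and the first reduction had the larger estimates: SUL1, SUL2, MET3, MET14 and MET16 rose at least 2-fold, as did 9.71% of all genes, and the 4 genes after them that rose did so by 1.47-fold to 1.81-fold. This order along the pathway was not tested. Without CQ replicate 2 SUL1 (0.88) and MET3 (0.95) were under 2-fold, though above MET10 (0.76). With the index in the fit SUL1 (0.16), MET16 (0.16) and MET3 (0.30) lay below MET10 (0.67), and SUL2 (1.22) and MET14 (0.76) above it. CQ and DMSO arrays did not overlap for 9 of the 10 genes, where this holds for 73.7% of all genes in either direction and for 38.6% with the CQ arrays higher.

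**Figure D1:**
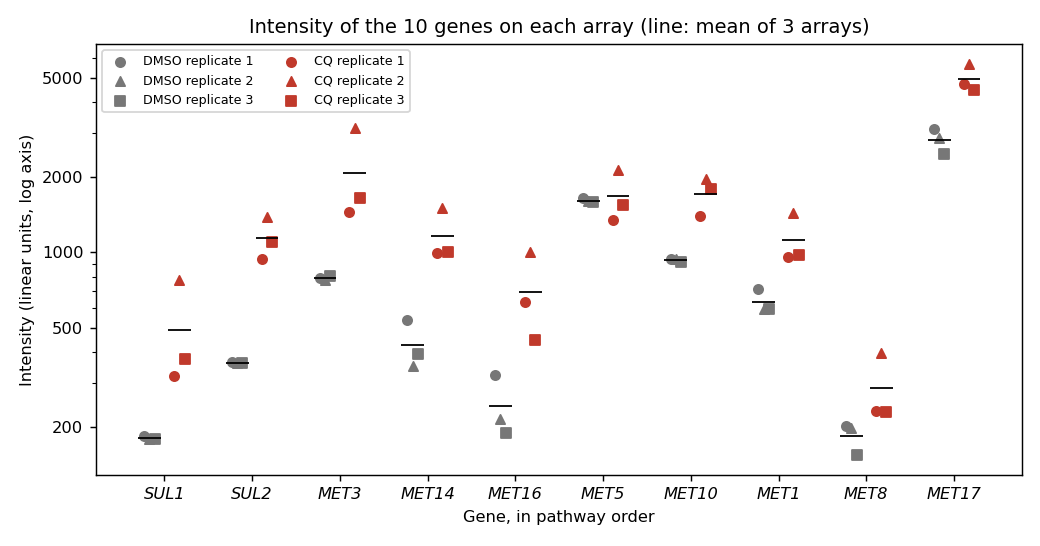
Intensity of each of the 10 genes (y, linear units on a log axis) on the 3 DMSO arrays (grey) and the 3 CQ arrays (red), in pathway order (x), with a line at each group's mean. The CQ arrays lie above the DMSO arrays for every gene but MET5, and CQ replicate 2 (red triangle) is the highest array for all 10.

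The sulfate permease genes come first in the pathway. SUL1 (YBR294W) encodes one of the high-affinity sulfate permeases of the plasma membrane. It read 183.0, 179.3 and 178.1 on DMSO replicates 1 to 3 and 319.9, 773.2 and 373.8 on CQ replicates 1 to 3. The DMSO arrays were close together, and CQ replicate 2 stood far above the other CQ arrays, which were themselves above all DMSO arrays. SUL1 rose by 1.26 ± 0.28 (limma adjusted p = 0.00433). SUL2 (YLR092W), which encodes the other high-affinity sulfate permease, read 363.7, 359.1 and 360.1 with DMSO and 936.8, 1382 and 1099 with CQ. Its groups were far apart, and in the main fit it had the largest difference of the 10 genes, 1.60 ± 0.13 (3.03-fold, adjusted p = 2.27e-05). MET16 was higher than SUL2 without DMSO replicate 1 (1.63 against 1.60) and without CQ replicate 3 (1.69 against 1.61). Among all genes 3.23% had a higher difference than SUL2. Without CQ replicate 2 the difference of SUL2 was 1.45 and that of SUL1 0.88, both past the threshold. With the index in the fit SUL2 stood at 1.22 (adjusted p = 0.00226) and SUL1 no longer passed, at 0.16 (adjusted p = 0.719).

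Activation of sulfate takes 2 enzymes. MET3 (YJR010W) encodes ATP sulfurylase, which makes adenylyl sulfate. Its intensities were 792.2, 776.3 and 802.5 with DMSO and 1448, 3156 and 1645 with CQ. As for SUL1, DMSO arrays lay close together while CQ replicate 2 was about as far from the other CQ arrays as these were from DMSO. MET3 rose by 1.29 ± 0.26 (adjusted p = 0.00239), and by 0.95 without CQ replicate 2. With the index its estimate was 0.30 (adjusted p = 0.451), and the call was lost. MET14 (YKL001C) encodes adenylyl-sulfate kinase, which adds the phosphate that gives PAPS, the substrate of the next enzyme. It read 537.0, 351.4 and 393.2 with DMSO and 991.2, 1500 and 1001 with CQ, so that the lowest CQ array was well above the highest DMSO array. MET14 rose by 1.41 ± 0.20 (adjusted p = 0.000386), and by 1.21 without CQ replicate 2. It did not pass with the index, at 0.76 (adjusted p = 0.0637).

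MET16 (YPR167C) encodes PAPS reductase, which releases sulfite with electrons from thioredoxin. It read 321.5, 214.3 and 189.6 with DMSO and 631.4, 1004 and 445.3 with CQ. It was the most variable of the 10 genes among DMSO arrays and varied widely among CQ arrays, yet the groups did not overlap. The difference was 1.42 ± 0.29 (adjusted p = 0.00287), and 1.12 without CQ replicate 2. With the index MET16 did not pass, at 0.16 (adjusted p = 0.653).

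Sulfite reductase is built of 2 kinds of subunit, and their genes gave unlike values. MET10 (YFR030W), which encodes the flavin-binding alpha subunit, read 945.0, 944.3 and 911.8 with DMSO and 1404, 1962 and 1799 with CQ. The groups were apart, and MET10 rose by 0.86 ± 0.12 (1.81-fold, adjusted p = 0.000406), by 0.76 without CQ replicate 2 and by 0.67 with the index (adjusted p = 0.0404). MET5 (YJR137C, also called ECM17), which encodes the beta subunit that carries siroheme and the iron-sulfur cluster, read 1648, 1605 and 1586 with DMSO and 1351, 2132 and 1546 with CQ. Of its CQ arrays 1 lay above all DMSO arrays and the other 2 below them. Its difference was 0.03 ± 0.15 (adjusted p = 0.878), with a 95% confidence interval from -0.33 to 0.38, an interval that does not reach the 0.86 of MET10.

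Within each array the log2 ratio of MET5 over MET10 was 0.79, 0.76 and 0.79 with DMSO and -0.06, 0.12 and -0.22 with CQ. The ratio was 0.83 lower on average with CQ, and the groups did not overlap. By exact permutation (two-sided) p was 0.1, the lowest possible with 3 against 3 arrays, and 0.4 after adjustment over the 4 pairs compared. Without CQ replicate 2 the ratio was 0.91 lower, so that this contrast between the subunits did not rest on that array. The direction of MET5 itself did depend on it, on the index and on the scaling: the estimate was -0.16 without CQ replicate 2 (adjusted p = 0.116), -0.49 with the index (adjusted p = 0.0969) and -0.11 after centring each array on its median. MET5 is the longest of the 10 genes, at 4329 annotated bases against 609 to 3108 for the others. With the trend of the differences over gene length removed from each array, an alternative added after the data were seen, MET5 fell by 0.60 (adjusted p = 0.0204), while MET10 rose by 0.44, down from 0.86. SUL1 and SUL2 then rose by 0.96 and 1.27, down from 1.26 and 1.60, and MET16 had the largest difference of the 10 genes, at 1.54.

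**Figure D2:**
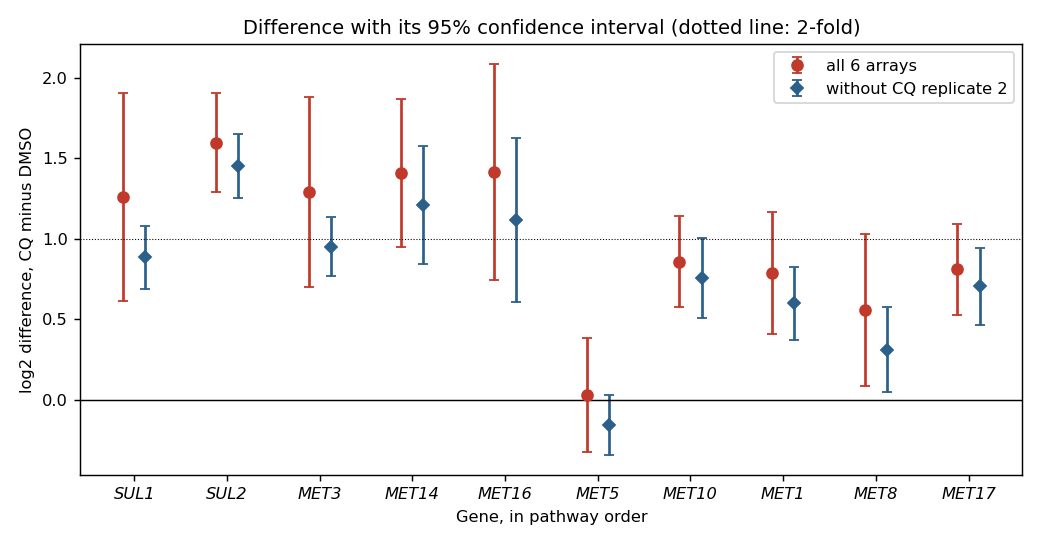
Log2 difference, CQ minus DMSO (y), of the 10 genes in pathway order (x) with 95% confidence intervals from limma, over all 6 arrays (red circles) and without CQ replicate 2 (blue diamonds). MET5 is the gene whose interval includes 0 in both, and SUL2 has the highest estimate in both, at 1.60 and 1.45.

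Siroheme itself is made from uroporphyrinogen III by the products of MET1 and MET8. MET1 (YKR069W) encodes the methyltransferase that commits uroporphyrinogen III to this branch. It read 715.7, 591.7 and 594.4 with DMSO and 956.3, 1442 and 973.2 with CQ, with all CQ arrays higher, and rose by 0.79 ± 0.16 (adjusted p = 0.00309). The difference of MET1 was 0.60 without CQ replicate 2, past the threshold, and 0.16 with the index, not past it (adjusted p = 0.528). MET8 (YBR213W) encodes the enzyme that oxidises the methylated ring and inserts iron. Its values were 200.8, 197.0 and 153.9 with DMSO and 231.9, 395.8 and 229.5 with CQ. The groups did not overlap, but the lowest CQ array was only a little above the highest DMSO array. MET8 had the smallest difference of the 9 genes that rose, 0.56 ± 0.20 (adjusted p = 0.0397). It no longer passed with arrays centred on the median (0.42) or the 75th percentile (0.50), or without any 1 of the DMSO arrays (0.45 to 0.62). Without CQ replicate 2 it passed, with a smaller difference of 0.31 (adjusted p = 0.0369), and with the index its sign turned, to -0.32 (adjusted p = 0.21).

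MET17 (YLR303W) encodes O-acetylhomoserine sulfhydrylase, which joins sulfide to O-acetylhomoserine. It read 3110, 2866 and 2479 with DMSO and 4709, 5711 and 4457 with CQ. All CQ arrays were far above the DMSO arrays, and MET17 rose by 0.81 ± 0.12 (1.75-fold, adjusted p = 0.000557). Without CQ replicate 2 it rose by 0.70, and with the index its estimate of 0.37 did not pass (adjusted p = 0.0878). Its CQ arrays stood at 34.0% of the array maximum on average, and those of the other 9 genes at 1.96 to 14.3%.

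The permease genes, the activating enzymes and the siroheme enzymes were compared pair by pair in the same way as the sulfite reductase subunits. The log2 ratio of SUL1 over SUL2 was 0.34 lower with CQ, that of MET3 over MET14 0.11 lower and that of MET1 over MET8 0.23 higher. Groups overlapped in all 3 of these pairs (exact two-sided permutation p = 0.4, 0.7 and 0.2, with n = 3 arrays per group). For SUL1 over SUL2 the CQ arrays disagreed: the ratio was -1.50 and -1.52 on CQ replicates 1 and 3, below the -0.93 to -0.95 of the DMSO arrays, and -0.83 on CQ replicate 2, above them. Without that array the ratio was 0.57 lower with CQ and the groups did not overlap. The exact two-sided permutation p was 0.2, the lowest that 2 against 3 arrays can give.

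The 10 genes shared a pattern among the CQ cultures. CQ replicate 2 was the highest CQ array for 10 of 10 genes, whereas it was the highest for 34.0% of all genes tested. It exceeded the mean of the other CQ arrays by 0.30 (MET10) to 1.12 (SUL1) on the log2 scale, with a median of 0.58, against a median of -0.03 over all genes. The pattern was not confined to the 10 genes. In the lists described below, CQ replicate 2 was highest for 13 of 19 methionine and transsulfuration genes (median excess 0.20) and 3 of 3 thioredoxin genes (0.19). It was highest for 3 of 6 regulators, 3 of 8 genes of organic sulfur and 0 of 2 of sulfite export. The median standard deviation of the 10 genes was 0.34 on the log2 scale with CQ and 0.09 with DMSO, against 0.13 and 0.07 for all genes. Among DMSO arrays the departures were smaller, and replicate 1 was the highest for 9 of the 10 genes. Over all genes the median departure was also highest on replicate 1, at 0.022, against -0.009 and -0.014 on DMSO replicates 2 and 3. Between CQ replicates 1 and 3 there was no common order, with 7 genes higher on replicate 3, which had the lower 3' to 5' index. Neither count was set against its share of all genes.

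**Figure D3:**
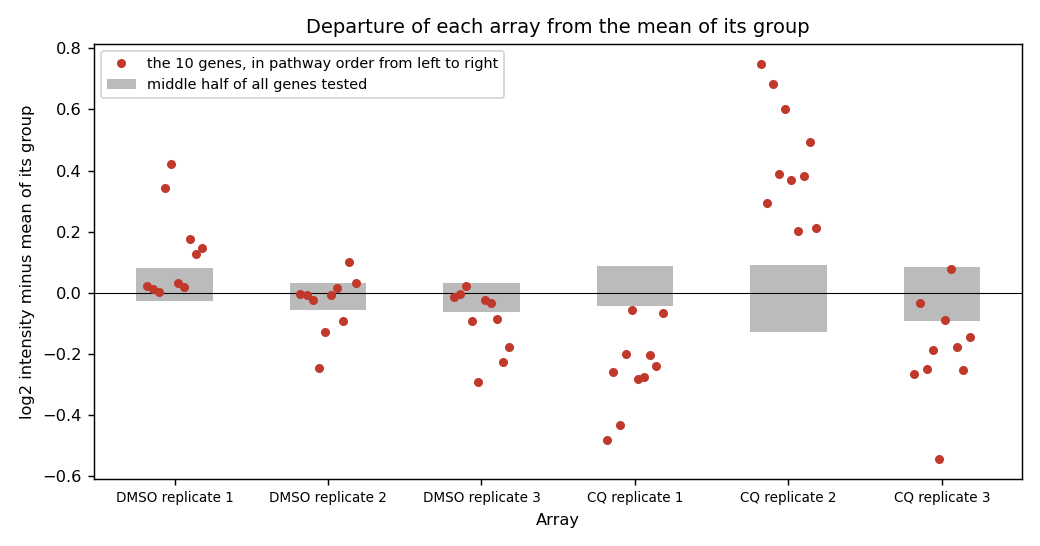
Departure of each array (x) from the mean of its group in log2 intensity (y), for the 10 genes (red points, in pathway order from left to right) and for the middle 50% of all genes tested (grey bars). On CQ replicate 2 the 10 genes lie 0.20 to 0.75 above their group's mean, clear of the grey bar, which runs from -0.13 to 0.09.

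The rise with CQ did not rest on CQ replicate 2 alone. Without it the same 9 genes rose, by 0.31 to 1.45, where 38.7% of all genes rose in that fit. MET14, MET16 and SUL2 were still at least 2-fold higher, and the share of all genes that were so was not counted. The median difference was 0.82. Once the 3' to 5' index, which is higher on every CQ array, entered the fit as a covariate, 2 of the 10 genes rose, SUL2 and MET10. The median of the 10 genes was then 0.23, with estimates from -0.49 (MET5) to 1.22, while 29.3% of all genes rose in that fit. The index ran from 1.15 to 1.53 among CQ arrays and from 0.88 to 0.96 among DMSO arrays, with CQ replicate 2 the highest. Adjustment for the index thus leans on that array and is not a check separate from leaving it out. Because the index is higher on every CQ array, its part in these differences cannot be told apart from that of CQ and was not tested.

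Genes around this pathway did not move as one, and the counts below are to be read against the 36.1% of all genes that rose and the 31.9% that fell. Of 6 regulators 4 rose, 1 fell and 1 did not pass. MET32 (YDR253C), which encodes one of the zinc-finger proteins that recruit Met4, read 108.2, 90.1 and 97.3 with DMSO and 1014, 1828 and 954.6 with CQ. All CQ arrays were many times brighter, and the difference of 3.42 ± 0.23 (10.7-fold, adjusted p = 7.80e-06) was larger than that of any of the 10 pathway genes. It was 3.13 without CQ replicate 2 and 2.46 with the index, past the threshold in both. MET32 was dim with DMSO, at 1.81 times background on its nearest array, and its difference was 3.61 and 2.97 with pseudocounts of 1 and 64. Its paralogue MET31 fell by 0.77 ± 0.09. MET4, the activator gene, rose by 0.53 ± 0.08 and MET30, whose product restrains Met4, by 0.73 ± 0.08. MET28, a leucine-zipper cofactor of Met4, rose by 0.32 ± 0.12 and did not pass without CQ replicate 2 (0.19), without any 1 of the DMSO arrays (0.28 to 0.35), with any of the 3 other scalings (0.19 to 0.26) or with the index (-0.11). CBF1, whose product binds the promoters together with Met4, stood at -0.31 ± 0.14 (adjusted p = 0.0835). CBF1 did pass as lower with the replicate number as a block (adjusted p = 0.0412), with the 3 other scalings (-0.37 to -0.44) and without CQ replicate 3 (-0.47), and it had the opposite sign with the index (0.28).

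Of 19 genes of homoserine, methionine and transsulfuration metabolism 7 rose, 7 fell and 5 did not pass, with a median of -0.11. Their shares were near those of all genes (36.1% and 31.9%). The largest differences were in STR3, cystathionine beta-lyase (2.54 ± 0.21), MET2, homoserine O-acetyltransferase (1.61 ± 0.12), and MHT1, S-methylmethionine-homocysteine methyltransferase (1.32 ± 0.14). Of the 7 genes that fell, SAM4 (-1.27 ± 0.10) and SAH1 (-1.06 ± 0.08) did so most. MET2 makes the O-acetylhomoserine that MET17 uses, and it went from 582.8 ± 38.2 to 1827 ± 286. Uptake and use of organic sulfur was higher in 6 of 8 measured genes and lower in 1, where 36.1% of all genes rose. The S-methylmethionine permease gene MMP1 rose by 1.37 ± 0.13, and the methionine permease genes MUP3 and MUP1 rose by 1.24 ± 0.10 and 1.08 ± 0.10. SOA1, a further gene of this list, was not measured under its name.

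In the lists of thioredoxin and of sulfite export 3 of 5 genes fell, where 31.9% of all genes did. Of the 3 thioredoxin genes, TRX1 fell by 0.72 ± 0.10 and the reductase gene TRR1 by 0.44 ± 0.09, while TRX2 stood at 0.03 ± 0.07, with a sign that turned when arrays were centred on their median (-0.10) or 75th percentile (-0.03). Of the pair for sulfite export, FZF1, the activator of the sulfite pump gene SSU1, fell by 0.96 ± 0.10, and SSU1 stood at -0.13 ± 0.08. SSU1 passed as lower with quantile normalization (-0.18) and with arrays centred on the 75th percentile (-0.19) or the median (-0.26).

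Siroheme and heme share their precursor. MET1 and MET8 rose, and 6 of the 8 genes of heme synthesis fell, against 31.9% of all genes. With the index in the fit neither MET1 (0.16) nor MET8 (-0.32) passed. Of the 4 enzymes leading to uroporphyrinogen III 3 fell, with -1.25 ± 0.11 for HEM3, -0.56 ± 0.11 for HEM4 and -0.48 ± 0.11 for HEM1, and HEM2 stood at -0.20 ± 0.09. HEM2 passed as lower with each of the 3 other scalings (-0.26 to -0.34), and HEM1 did not pass with the index (-0.22, adjusted p = 0.322). Of the 4 enzymes after the branch point 3 fell, with differences of -2.71 ± 0.10 for HEM13, -1.24 ± 0.07 for HEM15 and -0.54 ± 0.09 for HEM12, and HEM14 stood at 0.01 ± 0.08, with the opposite sign after centring on the median (-0.12). Genes of 4 other iron-sulfur enzymes of amino acid synthesis all fell, with -2.85 ± 0.09 for ILV3, -2.11 ± 0.08 for LYS4, -1.17 ± 0.12 for GLT1 and -0.83 ± 0.12 for LEU1. Whether they differed from MET5 was not tested.

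**Figure D4:**
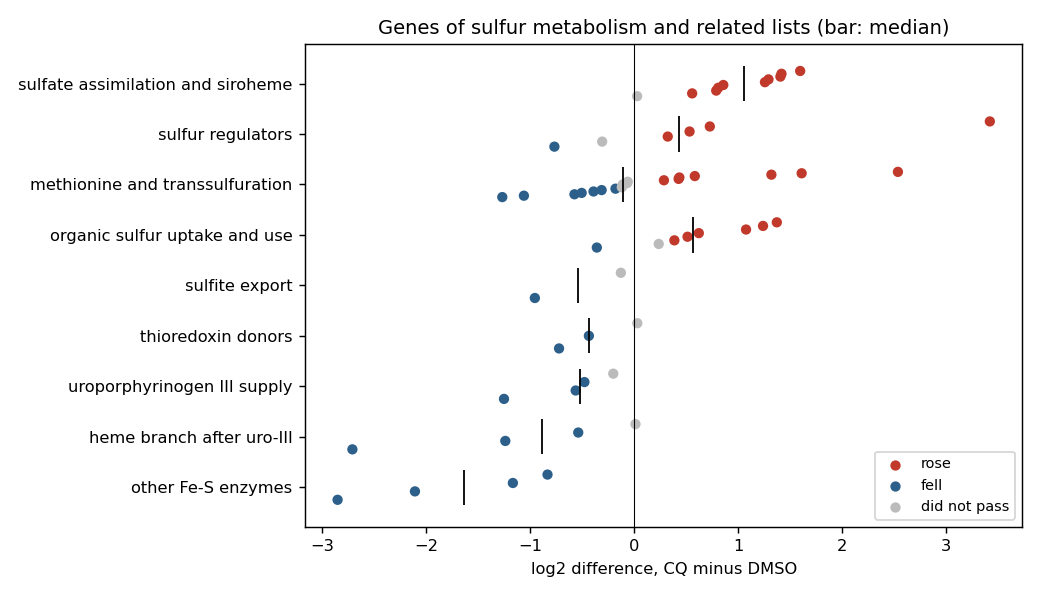
Log2 difference, CQ minus DMSO (x), of each measured gene in the 10 genes of sulfate assimilation and siroheme and in 8 related lists (y), coloured by whether it rose, fell or did not pass, with a bar at each median. Medians run from 1.06 for the 10 genes to -1.64 for the other iron-sulfur enzymes, and MET32 is the point at 3.42.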

How the data were processed

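Total RNA of 6 yeast cultures was measured on 1-colour Affymetrix arrays. The values are linear intensities per probe set as deposited by the authors, with 1 column per sample. The software for scanning, summarising and scaling is not given in the sources used here, so levels are relative to the other transcripts of an array. The table held 10928 probe sets, of which 5498 were paired with 1 S. cerevisiae gene and 1746 with fission yeast genes. Symbols were matched by identifier to 6477 RefSeq genes (R64). Where a gene had several probe sets the brightest was used, which left 5449 genes. No coordinates are given because the array annotation names no build.

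Differences were fitted with limma 3.58.1 in R 4.3.3 (lmFit and eBayes, two-sided, Benjamini-Hochberg adjustment over all genes) on log2(intensity + 16), which understates changes of dim genes. The fit was also run on simulated arrays that had the spread of the DMSO arrays in both groups and few changed genes. The real CQ arrays spread more and most genes passed, so that run does not show how the fit behaves here. Ratios of member pairs were tested with exact permutation over arrays in scipy 1.17.1. Precision is limited by 3 arrays per group. The labels call the replicates biological and give no batches.

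The 10 genes and the lists around them were chosen with earlier results of these data known. All 10 were described. Of each other list the 3 genes with the largest difference were named, and all genes of lists of 4 or fewer and of the regulators. SAM4 and SAH1 were named besides, as the genes of their list that fell most. The alternatives were other scalings, pseudocounts of 1 and 64, filters on dim genes, other variance models, another probe set summary, the replicate number as a block, adjustment for the 3' to 5' index and leaving out each array. Removal of the gene length trend was added after the data were seen.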

Additional observations from a re-analysis of the deposited data

How the results depend on the processing

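Across 19 alternatives, 167 of the 185 values for single genes of the pathway kept their direction and their side of the threshold. Part of this count was fixed in advance. Each of the 10 genes had 1 probe set, so the other probe set summary could not change its intensities. The filters on dim genes, the other variance models and the replicate block leave the estimates as they are. Under these alternatives only the adjusted p could change, and no direction could turn. The count of genes that rose, 9 of 10, was 8 or 9 when each array was left out in turn, 8 with arrays centred on the median or 75th percentile and 9 under the other alternatives, except for 2 with adjustment for the 3' to 5' index and 4 of the 5 genes that remained without the dimmest 40% of genes, a filter that removes the other 5. Among all genes tested the share that rose ran from 29.0% (arrays centred on the median) to 38.7% (without CQ replicate 2) over these alternatives. The count of the 10 genes that fell was 0 in all but 1: it was 1, MET5, with the gene length trend removed. MET5 had the opposite sign with quantile normalization (-0.039), centring on the median (-0.11) or the 75th percentile (-0.031), the index (-0.49), the length trend removed (-0.60) and without CQ replicate 2, and ran from -0.16 to 0.17 when each array was left out. With the index MET8 turned to -0.32, MET28 to -0.11, CBF1 to 0.28 and TRX2 to -0.10; TRX2 also turned with centring on the median (-0.10) and 75th percentile (-0.030). HEM14 turned with quantile normalization (-0.072), both centrings (-0.12 and -0.047), the length trend removed (-0.011) and without DMSO replicate 2 or CQ replicate 3, and ran from -0.033 to 0.060 when each array was left out. The cause of these turns was not tested. The ratio of MET3 over MET14 ran from -0.28 to 0.0014 when each array was left out. Of 50 genes in the related lists 17 rose and 22 fell, and these counts were 13 to 18 and 20 to 25 over the alternatives that kept all 50. Without the dimmest 40% of genes 39 of them were left, of which 13 rose and 18 fell. Centring on the median moved the median of all genes from 0.02 to -0.11.

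Same-numbered DMSO and CQ arrays had correlations of their deviations of 0.05, 0.12 and 0.14, not all over 0.1, so the numbers were not taken to pair the cultures. With the replicate number as a block 9 of the 10 genes rose and 0 fell, and in the related lists 17 rose and 22 fell. These were not all the same genes: CBF1 passed as lower with the block (adjusted p = 0.0412) and CYS4, cystathionine beta-synthase, no longer did (adjusted p = 0.0888). Each sample correlated best with its own number, which is a hint from the data and not the design. The number of arrays and the unknown scaling limit all values.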
